A study of Mus musculus with 42 samples.

Results

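GFP-labelled interneurons picked by hand from the cingulate cortex of GIN mice were compared with dissociated cells of the same cortex and line that had not been sorted. The comparison was fixed by the array labels, which assign 3 arrays to the sorted cells (GIN_Cg) and 3 to the unsorted cells (GIN_Homog_Cg), 6 of the 42 arrays of the series. The series profiled neuron types of the mouse forebrain on single-colour Affymetrix arrays, in 14 groups of 3 arrays each. The question was which transcripts the picked cells held at a higher or lower level than the cells they were picked from.

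Tissue was cut from slices 400 microns thick and dissociated with pronase E and trituration. The sorted arrays carried RNA from 46, 32 and 48 cells, collected with a pipette of 50 microns. All sorted mice were labelled male. Sorted array 1 pooled mice aged 63, 70 and 75 postnatal days, array 2 came from a mouse aged 78 days, and array 3 pooled mice aged 68 and 77 days. Arrays 1 and 2 came from a mixed background of GIN and C57BL/6j, whereas array 3 was labelled as GIN transgenic only. The labels call the cells GFP-expressing and somatostatin-positive, with the line named after Gad1, whose promoter drives GFP in GIN mice. GFP in this line marks only some of the somatostatin cells of cortex. The unsorted arrays are described as homogenate, but by their protocol they hold RNA from at least 1000 dissociated cells. Strain background, age and sex of the unsorted mice were not stated in the labels, and neither was a treatment for any group. Another line, G42, had sorted GFP cells labelled as parvalbumin-positive (51, 35 and 43 cells, males aged 65 to 79 days, mixed G42 and C57BL/6j) and its own 3 unsorted arrays (G42_Homog_Cg), so that the difference between sorted and unsorted cells could be set against another interneuron type.

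Somatostatin interneurons are GABAergic cells that arise in the medial ganglionic eminence under the transcription factor Lhx6. In cortex many of them, the Martinotti cells, send axons to layer 1 and inhibit the distal dendrites of pyramidal neurons. In the mouse, subsets of somatostatin cells also make neuropeptide Y, the calcium-binding proteins calbindin and calretinin, or reelin.

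Levels are log2(intensity + 16) of the brightest probe set of each gene, and differences are sorted minus unsorted on that scale, with a standard error (SE) pooled over the 14 groups. The added 16 makes a fold change of a dim gene smaller than the fold change of its intensity. A gene was called when its limma p, adjusted by Benjamini-Hochberg over 9295 tested genes, was below 0.05. Genes under the 25th percentile of mean level over the 42 arrays, which is log2 7.77 or an intensity of 203, were not tested. Limma called 2730 of the 9295 genes (29.4%), of which 1425 rose (15.3%) and 1305 fell (14%) in sorted cells. A call with at least a 2-fold difference was made for 538 genes (5.79%), 193 higher (2.08%) and 345 lower (3.71%). At least 10-fold differences were found for 5 higher and 21 lower genes. The 3 sorted and 3 unsorted arrays did not overlap for 4045 genes (43.5%). In these bulk samples, fewer cells of a type and less RNA per cell cannot be told apart.

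The sorted arrays resembled each other with Pearson correlations over the tested genes of 0.959 to 0.972, the unsorted arrays with 0.977 to 0.991, and the pairs across the groups with 0.858 to 0.878. Genes share their array in these values, so they describe the arrays and test nothing. The array records show 3 scan days that each held 1 sorted and 1 unsorted array. Array medians were close, with means of 320 in both groups. The balance of 3' to 5' signal, which falls with intact RNA and long amplified copies, differed with the group. The log2 ratio of the Gapdh control signal at the 3' end over the 5' end was 2.97, 3.64 and 3.02 on the sorted arrays and 1.84, 2.24 and 1.91 on the unsorted arrays. These ranges did not overlap (exact permutation test, two-sided p = 0.1, the smallest that 3 against 3 arrays allow). The same ratio for actin was 2.98 ± 0.11 (SD, n = 3) and 2.67 ± 0.17 (exact permutation p = 0.2). With the Gapdh ratio as a covariate, limma called 789 genes higher and 980 lower, and 1645 of the 2730 genes were called in the same direction. The part of RNA integrity in the results below was not tested further.

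Sst, the gene of the somatostatin precursor, had the largest positive difference of all tested genes. It stood at 14.14, 14.16 and 14.06 on the sorted arrays and at 10.48, 9.95 and 10.28 on the unsorted arrays. The sorted arrays were all higher and lay within 0.10 of each other. The difference was 3.88 ± 0.36 (SE, n = 3 and 3), or 14.8-fold (limma adjusted p = 1.28e-10). Within the 3 scan days it was 4.20, 3.88 and 3.58.

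The sequence around the start of Sst is shown because the gene leads the comparison and because its promoter holds the cAMP response element, the palindrome TGACGTCA, through which CREB is known to drive somatostatin transcription. It is taken from RefSeq on GRCm38.p6, chr16:23890795-23891094, minus strand, from 250 bases before to 50 bases after the start, with the element in capitals from position -48 to -41. The start region of Gad1 is given beside it because Gad1 drives the label by which the cells were picked (chr2:70561879-70562178, plus strand, same build). The fragment used in the transgene was not analysed here.
Sst: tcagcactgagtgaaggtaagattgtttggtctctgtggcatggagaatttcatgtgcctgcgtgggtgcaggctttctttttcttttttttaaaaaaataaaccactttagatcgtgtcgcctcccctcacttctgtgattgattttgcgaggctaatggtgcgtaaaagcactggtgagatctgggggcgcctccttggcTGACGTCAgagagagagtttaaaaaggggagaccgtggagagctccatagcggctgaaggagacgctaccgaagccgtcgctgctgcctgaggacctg
Gad1: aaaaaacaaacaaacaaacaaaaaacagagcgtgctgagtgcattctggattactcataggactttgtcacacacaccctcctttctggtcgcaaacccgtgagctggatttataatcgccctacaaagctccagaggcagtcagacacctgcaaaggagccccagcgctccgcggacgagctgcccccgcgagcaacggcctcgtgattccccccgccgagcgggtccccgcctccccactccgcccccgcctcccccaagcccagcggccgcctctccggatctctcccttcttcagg
The 8 letters of the element, which read the same on both strands, were not found in the Gad1 window. They were found in 588 of 32851 promoters of this length (1.79%). Of the tested genes with a promoter sequence, 245 of 7488 held them (3.27%). Of the genes called at least 2-fold higher, 2 of 148 with a promoter held them (1.35%). These were Sst and Scg2, a granin of secretory vesicles (1.12). Of the genes called at least 2-fold lower, 10 of 275 held them (3.64%). A match in such a window is a description and not a binding site.

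Most other tested genes of the somatostatin class rose. The list of 24 genes, with Sst, had 15 measured members. Without Sst, 14 were measured and 11 tested, and 9 of these rose and 0 fell, against 15.3% of all tested genes that rose. Nos1, a nitric oxide synthase (0.03 ± 0.12), and Tacr1, the substance P receptor (0.08 ± 0.09), were not called. The median difference over the 14 measured genes was 0.91, against 0.05 over all 12393 genes. Their summed intensity was 41339 to 47332 on the sorted arrays and 8393 to 10303 on the unsorted arrays. The list was written with results of these data known, so its direction is not independent evidence.

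Npy, the neuropeptide Y precursor, stood at 13.25, 13.88 and 13.53 in sorted cells and at 10.50, 10.54 and 10.44 in unsorted cells. No sorted array came near the unsorted range. The difference was 3.06 ± 0.35 (limma adjusted p = 1.97e-08), and it was 2.28 with the Gapdh covariate. Calb2, which encodes the calcium buffer calretinin, was at 12.69, 12.49 and 12.51 against 8.95, 9.13 and 9.03, a difference of 3.52 ± 0.37. Calb1, which encodes calbindin, was at 12.72, 12.91 and 12.96 against 10.70, 11.27 and 10.97 (1.88 ± 0.31). Reln, which encodes the secreted protein reelin, was at 13.53, 13.48 and 13.42 against 10.18, 11.08 and 10.29. Its difference was 2.96 ± 0.31, and 2.30 with the Gapdh covariate. All arrays of the sorted group lay above all unsorted arrays for each of these genes. Among the 12 sorted groups of the series, GIN_Cg had the highest mean of Sst, Npy, Calb1, Calb2 and Reln. Cort, the precursor of the related peptide cortistatin, rose by less: 10.60, 10.17 and 9.96 against 8.95, 9.08 and 9.18 (1.17 ± 0.20, limma adjusted p = 1.67e-05). Moxd1, a monooxygenase-like gene, rose by 1.95 ± 0.11. The smaller differences were those of Nxph1, a neurexophilin (0.64), Rbp4, a retinol carrier (0.57), and Pcdh18, a protocadherin (0.53).

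All 4 measured genes of GABA synthesis, packaging and breakdown rose, against 15.3% of all tested genes, with a median of 2.36. Gad1, one of the enzymes that make GABA, stood at 11.46, 11.51 and 11.76 in sorted cells and at 8.99, 9.37 and 8.96 in unsorted cells. Gad2, the other such enzyme, was at 10.90, 10.30 and 9.70 against 7.84, 7.93 and 7.64, with a wider spread among the sorted arrays. The differences were 2.47 ± 0.33 for Gad1 and 2.50 ± 0.19 for Gad2, with no overlap of the arrays. Slc32a1, the vesicular GABA transporter, differed by 2.25 ± 0.29 and Abat, the transaminase that breaks GABA down, by 0.83 ± 0.16. The summed intensity of these genes was 12798 to 14358 on the sorted and 2922 to 3354 on the unsorted arrays. Aldh5a1, also on the list, was not analysed here.

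Most tested transcription factors of interneurons rose as well, beside 15.3% of all tested genes. Dlx1, a homeobox factor of forebrain GABAergic cells, stood at 11.08, 11.17 and 11.28 in sorted cells and at 7.47, 7.85 and 7.29 in unsorted cells. This was the second-largest positive difference, 3.64 ± 0.24 (12.5-fold, limma adjusted p = 5.6e-14). Its relatives Dlx6 (0.87 ± 0.17) and Dlx5 (0.76 ± 0.12) and the zinc finger factor Zeb2 (1.03 ± 0.26) rose too, so that 4 of 5 tested factors of the list were higher and 0 lower. The Zeb2 call ended with G42_Homog_Cg as the reference (limma adjusted p = 0.0717). Lhx6, the factor of medial eminence interneurons, was at 11.17, 11.01 and 11.23 against 8.53, 8.39 and 8.55 (2.65 ± 0.11, limma adjusted p = 2.25e-19). Satb1, a chromatin organiser that acts in the maturation of these cells, rose by 0.71 ± 0.21, a call that ended with the Gapdh covariate (limma adjusted p = 0.138). Mef2c, a factor that is also abundant in pyramidal cells, fell by 0.86. Of the 4 tested factors on the caudal eminence list, Tcf4 alone was called (1.07 ± 0.12).

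**Figure D1:**
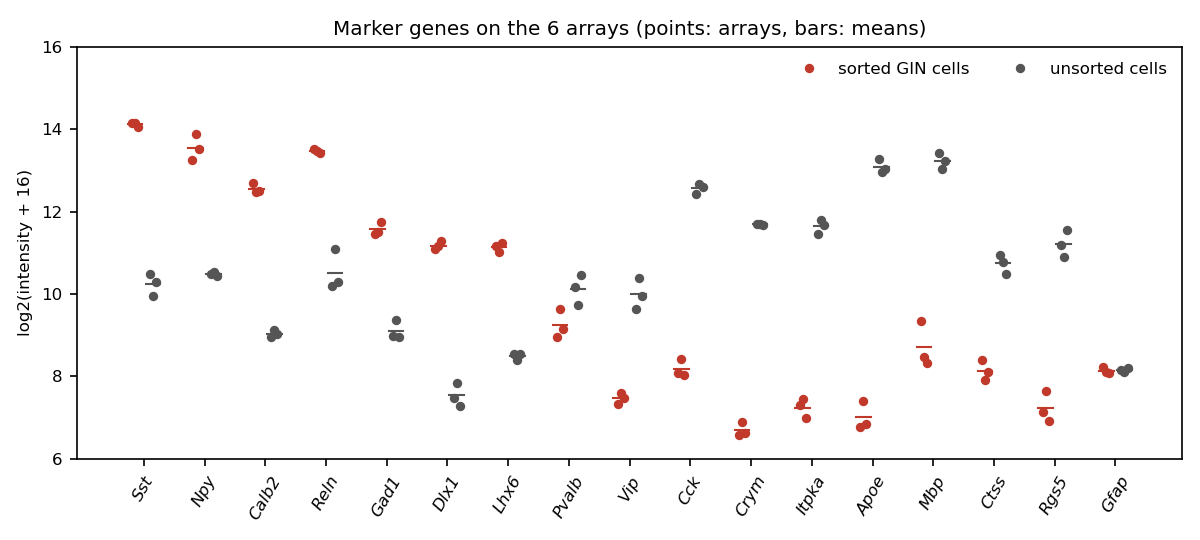
Level of 17 marker genes as log2(intensity + 16) on the 3 sorted GIN arrays (red) and the 3 unsorted arrays (grey), with points for arrays and bars for group means. Sst, Npy, Calb2, Reln, Gad1, Dlx1 and Lhx6 are higher on every sorted array, Vip through Rgs5 and Pvalb lower, and the Gfap points of both groups lie together near 8.1.

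Genes of the other interneuron classes did not move together. The parvalbumin list had 4 of 12 tested genes higher and 4 lower, against 15.3% and 14% of all tested genes, with a median of -0.04 over 14 measured genes. Pvalb, the calcium buffer of fast-spiking cells, was at 8.95, 9.64 and 9.15 on the sorted arrays and at 10.17, 9.74 and 10.47 on the unsorted arrays. The groups lay close but did not overlap, and the difference was -0.88 ± 0.23 (limma adjusted p = 0.00377). Lpl, a lipoprotein lipase (-2.21), and Gabrd, the delta subunit of extrasynaptic GABA-A receptors (-1.76), fell with it. The Lpl difference was -1.52 when low values were raised to the filter level. Kcnmb2, which tunes calcium-activated potassium channels, rose by 1.65 ± 0.24, and Kcnc1, a channel of fast spiking, by 0.81. With the Gapdh covariate 1 gene of this list was called higher in place of 4, and without sorted array 2 or unsorted array 2 it was 2.

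On the list of VIP, CCK and neurogliaform cells, 6 of 10 tested genes fell and 1 rose. Of all tested genes 14% fell and 15.3% rose. Vip, a neuropeptide of bipolar interneurons, was at 7.32, 7.60 and 7.48 against 9.64, 10.40 and 9.95 (-2.53 ± 0.21). Lamp5, a membrane protein of neurogliaform and also of some pyramidal cells, was at 7.32, 7.36 and 7.77 against 11.82, 12.21 and 12.10 (-4.56 ± 0.30). Cck, a peptide made by basket cells and by pyramidal cells, was at 8.08, 8.43 and 8.04 against 12.44, 12.68 and 12.61 (-4.39 ± 0.14, limma adjusted p = 1.53e-22). For these 3 genes the sorted arrays were all below the unsorted ones. Igf1, a growth factor, was the member that rose: 10.88, 10.86 and 11.24 against 7.87, 8.18 and 8.21 (2.91 ± 0.27). The summed intensity of the list was 3888 to 4754 on the sorted and 13180 to 15564 on the unsorted arrays. The unsorted sum includes Cck at 5534 to 6527 and Lamp5 at 3589 to 4731, genes that pyramidal cells also express. Of the 12 measured genes, 7 had a sorted mean under the filter level.

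Genes of pyramidal neurons fell. All 13 tested genes of a list of 20, of which 15 were measured, were lower, against 14% of all tested genes, with a median of -2.37. Their summed intensity was 5714 to 7116 on the sorted and 30246 to 32315 on the unsorted arrays, and 6 of the 15 sorted means lay under the filter level. Crym, which binds thyroid hormone, was at 6.58, 6.90 and 6.62 against 11.71, 11.70 and 11.67. The groups were far apart, with a difference of -4.99 ± 0.26 (31.8-fold, limma adjusted p = 8.21e-17), or -3.92 when values under the filter level were raised to it. Itpka, an inositol trisphosphate kinase of dendritic spines, was at 7.30, 7.44 and 6.98 against 11.46, 11.79 and 11.68 (-4.40 ± 0.19). Arpp21, a phosphoprotein regulated by cAMP (-3.41 ± 0.15), Ptk2b, a calcium-sensitive tyrosine kinase (-2.74 ± 0.22), and Nrgn, a calmodulin-binding postsynaptic protein (-2.37), were lower too.

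Layer genes moved less evenly, beside 14% of all tested genes that fell and 15.3% that rose. Of 10 tested layer 5 genes 7 fell, among them Crim1, a transmembrane growth factor regulator (-3.93 ± 0.29, -2.51 with the floor and -3.32 with a pseudocount of 64), Ldb2, a LIM cofactor (-2.41), Pcp4, a calmodulin regulator (-2.36), and Fezf2, which specifies subcortical projection neurons (-2.06). Tox, a nuclear factor on the same list, rose by 0.60 ± 0.19, a call that ended with the Gapdh covariate (limma adjusted p = 0.0704), with G42_Homog_Cg as the reference (0.327) or without unsorted array 2 (0.0967). Of 8 tested layer 6 genes 5 fell and 2 rose. Rprm, a cell cycle regulator, differed by -3.20 ± 0.19 and Lypd1, a modulator of nicotinic receptors, by -3.12 ± 0.30. The Rprm difference was -2.39 with the floor and -3.97 with G42_Homog_Cg as the reference. The members that rose were Moxd1, which is also on the somatostatin list, and Foxp2, a forkhead factor (0.63 ± 0.12, limma adjusted p = 0.00012). The Foxp2 call ended with the Gapdh covariate (limma adjusted p = 0.083). Of 4 tested genes of layers 2 to 4, Wfs1, a membrane protein of the endoplasmic reticulum, fell (-1.20).

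The largest negative difference of all tested genes was that of an astrocyte gene. Apoe, which astrocytes secrete to carry lipids, was at 6.76, 7.41 and 6.85 on the sorted arrays and at 13.28, 12.96 and 13.03 on the unsorted arrays. The sorted level lay below the filter level, and the difference of -6.08 ± 0.37 (67.6-fold, limma adjusted p = 4.99e-15) was -5.31 with values raised to that level. Aldoc, a glycolytic enzyme of astrocytes, was at 8.41, 8.17 and 8.06 against 13.24, 13.02 and 13.16 (-4.93 ± 0.33). Of 13 tested genes of the astrocyte list 9 fell and 0 rose, against 14% and 15.3% of all tested genes. Those that fell included S100b, a calcium-binding protein (-2.75 ± 0.20, and -2.11 with the floor), Mt2, a metallothionein (-3.20 ± 0.32), and Glul, which makes glutamine (-2.21). Gfap, the filament protein of reactive astrocytes, was at 8.23, 8.10 and 8.08 against 8.14, 8.10 and 8.20. Its groups overlapped and it was not called (-0.01 ± 0.09, limma adjusted p = 0.922). The summed intensity of the 18 measured genes was 11799 to 12947 in sorted cells and 47363 to 58438 in unsorted cells. The deposited values do not go below 1, and the lowest intensity of the list on a sorted array was 46.3.

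The filter removed some genes that were bright in the unsorted cells and dim in the sorted groups, because the level was averaged over 42 arrays of which 36 hold sorted neurons. Without the filter, 484 of the genes it had left out passed in limma over 12393 genes, 267 higher and 217 lower, and 21 of them were at least 4-fold lower. The genes of this group given next were chosen after their values were seen. Gja1, the gap junction protein connexin 43 of astrocytes, was at 6.63, 5.96 and 6.38 against 12.02, 11.80 and 12.19 (-5.68 ± 0.37, limma adjusted p = 2.64e-14 without the filter). Mobp, a myelin protein of oligodendrocytes, was at 7.20, 6.78 and 6.88 against 11.67, 11.05 and 11.01 (-4.29 ± 0.19). Neurod6, a transcription factor of pyramidal neurons, was at 4.91, 5.11 and 4.73 against 9.58, 9.64 and 9.68 (-4.72 ± 0.24). In each of the 3 genes the sorted arrays were all far below the unsorted arrays. Olig1, a factor of the oligodendrocyte lineage (-3.94 ± 0.20), and Mlc1, a membrane protein of astrocyte endfeet (-2.86 ± 0.13), had the same direction. On the side of the sorted cells, Trpc6, a cation channel, was at 9.53, 9.50 and 9.57 against 6.55, 6.64 and 6.40 (3.0 ± 0.21). Npas1, a repressor found in forebrain interneurons, was at 9.23, 9.34 and 9.40 against 6.94, 6.83 and 6.73 (2.49 ± 0.19). Sox6, a factor of medial eminence interneurons, differed by 1.87 ± 0.18 and Pdyn, the dynorphin precursor, by 1.59 ± 0.14. These 4 genes were higher on every sorted array.

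Most counts for glia and vessels grew without the filter. Without it, 13 of 18 astrocyte genes, 10 of 12 oligodendrocyte genes and 14 of 15 pyramidal genes were called lower, against 12% of all genes. For vessels it was 9 of 13 endothelial and 5 of 9 mural genes. The counts of lower microglia genes (7) and precursor genes (1) did not change. On the somatostatin list 11 of 15 were then called higher, against 13.2% of all genes.

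**Figure D2:**
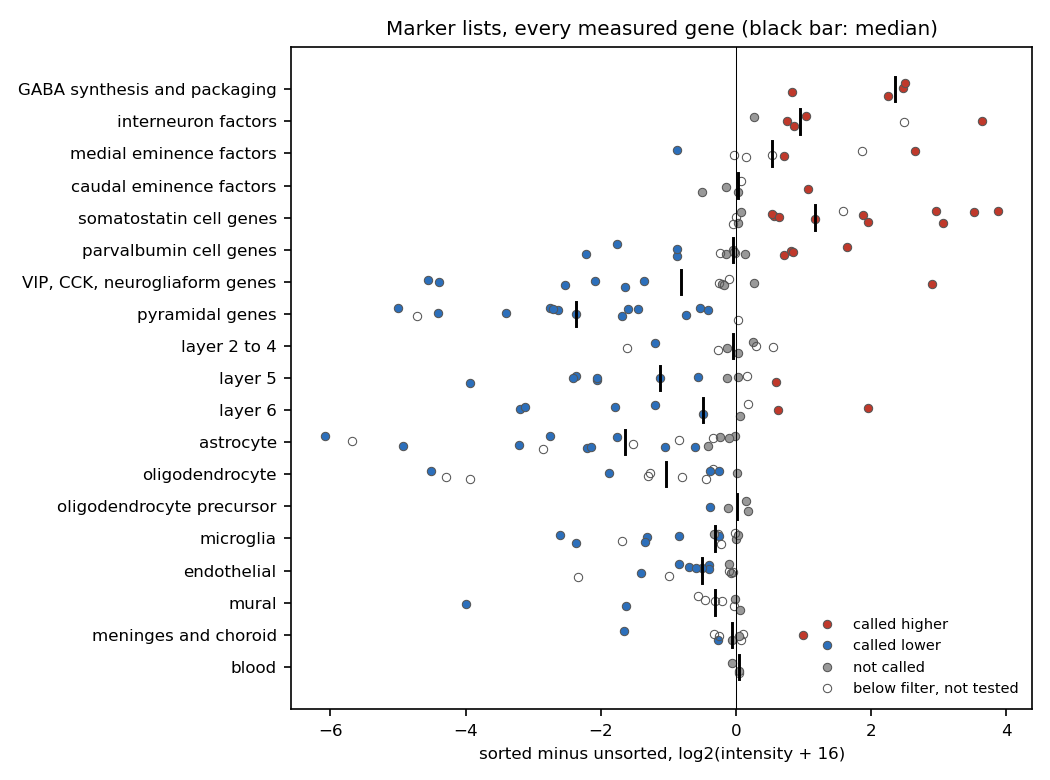
Difference between sorted and unsorted cells, on the log2(intensity + 16) scale, for every measured gene of 19 marker lists, with 1 point per gene and a black bar for the list median. Filled red and blue points are genes called higher and lower, grey points were not called, and open points lay below the filter level; the medians run from 2.36 for the GABA list to -2.37 for the pyramidal list.

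Other glia and vessel genes were lower to different degrees. Mbp, a myelin protein, was at 9.35, 8.46 and 8.33 on the sorted arrays and at 13.42, 13.04 and 13.23 on the unsorted arrays. Sorted array 1 was the highest of its group and still far below the unsorted range, and the difference was -4.52 ± 0.32 (limma adjusted p = 2.34e-13). Cnp, a myelin enzyme, was at 9.88, 9.94 and 9.93 against 12.10, 11.51 and 11.76 (-1.87 ± 0.21), and its sorted level was the highest among the 12 sorted groups. The other called oligodendrocyte genes were Sox10, a lineage factor (-0.39 ± 0.14), whose arrays overlapped, and Mal, a myelin proteolipid (-0.25 ± 0.09). The Sox10 call ended without sorted array 1 (limma adjusted p = 0.357), sorted array 3 (0.0633), unsorted array 1 (0.0958) or unsorted array 3 (0.0974). The Mal call ended without sorted array 2 (limma adjusted p = 0.0566), sorted array 3 (0.196) or unsorted array 1 (0.18). Both calls ended with the Gapdh covariate (0.121 for Sox10 and 0.108 for Mal) and with the 6 compared arrays alone (0.187 and 0.162). Of the 4 tested precursor genes, Sox10 alone was called. Of 5 tested oligodendrocyte genes 4 were thus lower in the full fit and 2 with the covariate. Of all tested genes 14% were lower in the full fit. The list summed to intensities of 3294 to 3845 in sorted and 17331 to 23137 in unsorted cells.

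Of 10 tested microglia genes 7 fell and 0 rose, against 14% and 15.3% of all tested genes. Ctss, a lysosomal protease, was at 8.39, 7.90 and 8.11 against 10.95, 10.77 and 10.50 (-2.61 ± 0.10). C1qa, a complement component, differed by -2.37 ± 0.23 and C1qb by -1.31 ± 0.12. Csf1r, the receptor on which microglia depend, was at 10.46, 10.76 and 10.82 against 12.12, 11.91 and 12.05 (-1.35 ± 0.13). It fell, and its group means over the 12 sorted groups of the series ran from 10.04 to 10.68, with GIN_Cg the highest. Each array left out in turn gave 5 or 6 microglia genes lower.

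Of 9 tested endothelial genes 7 fell, against 14% of all tested genes. Kdr, a receptor of vascular growth factor, differed by -1.40 ± 0.13 and Cldn5, a tight junction protein, by -0.85 ± 0.17. Among mural genes Rgs5, a G-protein regulator of pericytes, was at 7.13, 7.63 and 6.92 against 11.19, 10.91 and 11.55 (-3.99 ± 0.34). Vtn, the matrix protein vitronectin, fell by 1.63. On the meninges list Ptgds, a prostaglandin synthase, fell (-1.65 ± 0.26) and Dcn, the proteoglycan decorin, rose (1.00 ± 0.36, limma adjusted p = 0.0339). Dcn was at 10.34, 8.92 and 9.37 against 8.89, 7.97 and 8.78. Its call ended without sorted array 1 (limma adjusted p = 0.259) or unsorted array 2 (0.21), and within scan-day pairs (0.118), among 6 alternatives that ended it, and the difference was 1.70 with the Gapdh covariate. Neither of the 2 tested blood genes was called.

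Several genes at the ends of the ranking were on no marker list. Lgals1, which encodes galectin 1, was at 12.43, 12.52 and 12.08 against 8.88, 8.91 and 8.71 (3.51 ± 0.27). Col19a1, a collagen gene of interneurons, was at 11.19, 10.83 and 11.15 against 7.72, 7.71 and 7.66 (3.36 ± 0.20). Chl1, an adhesion molecule of the L1 family, was at 11.46, 10.50 and 10.77 against 7.61, 7.81 and 7.74 (3.19 ± 0.27). No sorted array reached down to the unsorted values for these genes. Rpp25, a subunit of ribonuclease P, was at 8.65, 10.61 and 10.87 against 7.05, 6.67 and 6.46. Sorted array 1 was about midway between the groups, and the difference of 3.32 ± 0.33 was 4.02 without it. It was 2.27 with the floor, 2.72 with the Gapdh covariate and 2.73 with G42_Homog_Cg as the reference.

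Among the genes that fell, Nfix, a nuclear factor I transcription factor, was at 6.32, 6.70 and 7.30 against 12.64, 12.19 and 12.79 (-5.77 ± 0.36), or -4.76 with the floor. Plpp3, a lipid phosphatase of astrocytes, was at 7.17, 7.50 and 7.34 against 12.50, 11.84 and 12.20 (-4.84 ± 0.32). Selenop, a selenium carrier, was at 7.26, 7.28 and 7.33 against 12.36, 11.71 and 12.30 (-4.83 ± 0.14). All 3 were below the filter level on every sorted array. Mmd2, a membrane protein enriched in astrocytes, differed by -4.62 ± 0.25 and C1ql3, a secreted synaptic organiser of the C1q family, by -4.26 ± 0.28 (-3.70 and -3.18 with the floor).

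**Figure D3:**
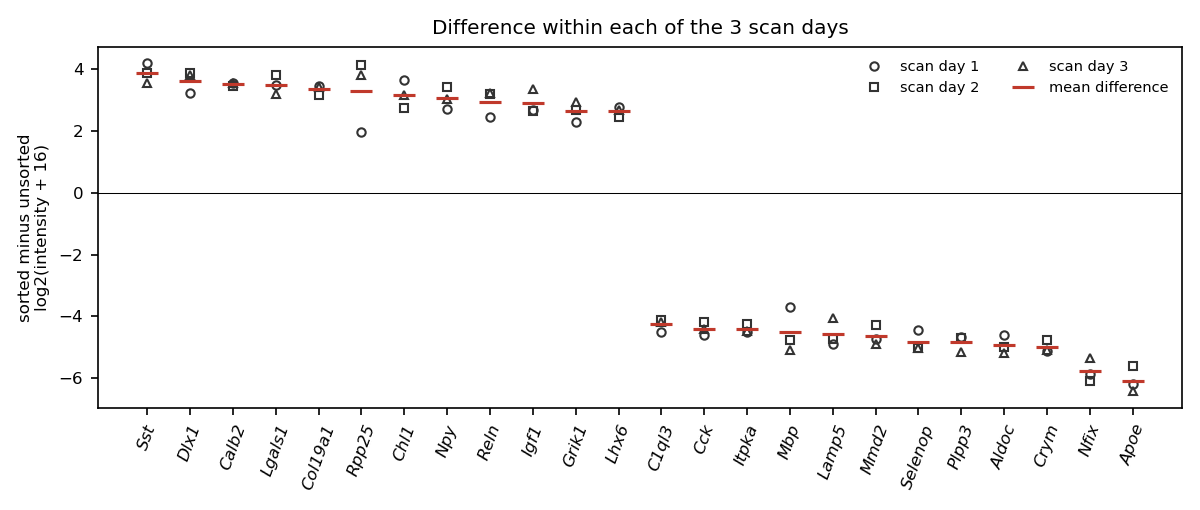
Difference between the sorted and the unsorted array scanned on the same day, on the log2(intensity + 16) scale, for the 12 called genes with the largest difference in each direction whose arrays did not overlap. Open symbols are the 3 days and red bars the mean difference; every gene keeps its sign on each day, and Rpp25 spreads most, from 1.98 to 4.15.

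Among the 2730 called genes, 99.3%, 99.6% and 99.7% had the direction of the full fit within the 3 scan days. These differences use the same 6 arrays and are no independent check.

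Genes of excitability and transmission were called in part. Of 23 tested sodium and calcium channel genes 8 rose and 1 fell, against 15.3% and 14% of all tested genes. Cacna2d3, an auxiliary subunit of calcium channels, was at 12.19 ± 0.09 (SD, n = 3) against 9.91 ± 0.14, with no overlap (difference 2.28 ± 0.17). Scn1a, a sodium channel prominent in interneurons, rose by 1.46 ± 0.16 and Cacna2d2 by 1.68 ± 0.17 (1.03 with G42_Homog_Cg as the reference), while Cacna2d1, a subunit gene of the same family, fell by 1.10. The summed intensity was 30846 to 32477 in sorted and 19058 to 20718 in unsorted cells. Of 46 tested potassium channel genes 7 rose (15.2%) and 9 fell (19.6%), near the shares of all tested genes. Kcnh2, an ERG channel, rose by 1.42 ± 0.21, and Kcnmb4, a partner of calcium-activated channels in neurons, fell (-1.95 ± 0.21), as did Kcnc4 (-1.09 ± 0.19). Another Kcnc4 probe set was not called (-0.07 ± 0.13). With the Gapdh covariate 3 potassium channel genes were called higher.

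Of 11 tested glutamate receptor genes 3 rose (27.3%, against 15.3% of all tested genes). Grik1, a kainate receptor subunit, was at 10.26, 10.35 and 10.77 against 7.82, 7.96 and 7.67 (2.65 ± 0.28). The AMPA receptor genes Gria1 (1.43 ± 0.21) and Gria3 (1.26 ± 0.24) rose, and Gria2, whose product makes these receptors poorly permeable to calcium, fell (-0.63 ± 0.12). Another Gria2 probe set was not called (0.004 ± 0.15). Of 9 tested GABA receptor genes 3 fell (33.3%), against 14% of all tested genes. All of them were GABA-A subunits, namely Gabrd, Gabrb1 (-1.52 ± 0.20) and Gabrg1 (-1.16 ± 0.23). Of 30 tested genes of vesicle release 8 rose (26.7%) and 6 fell (20%), against 15.3% and 14% of all tested genes. Rab3b, a vesicle GTPase, was at 12.21, 12.40 and 12.16 against 9.69, 9.54 and 9.87 (2.55 ± 0.21). Syt17, a synaptotagmin-like gene, was at 7.53, 7.37 and 7.72 against 10.53, 10.72 and 10.60 (-3.07 ± 0.23), and Stx1a, a syntaxin of the fusion complex, differed by -2.06 ± 0.17. With the Gapdh covariate 4 release genes were called higher.

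Of 16 tested neuropeptide and granin genes 5 rose and 7 fell, against 15.3% and 14% of all tested genes. Besides Sst, Npy and Cort, the genes that rose were Chga (1.49) and Scg2 (1.12), granins of dense-core vesicles. The lower ones included Penk, the enkephalin precursor (-2.23), Grp, gastrin-releasing peptide (-1.96), Tac2, the neurokinin B precursor (-1.36), and Adcyap1, which encodes PACAP (-1.17). Among 5 tested processing genes, Scg5, a helper of a prohormone convertase (0.88 ± 0.12), and Pcsk1, a prohormone convertase (0.86 ± 0.15), rose. Cpd (-0.57 ± 0.12) and Cpe (-0.35 ± 0.08), both carboxypeptidases, fell, calls that ended with the Gapdh covariate (limma adjusted p = 0.0924 and 0.0613). Of 26 tested cadherin genes 5 rose (19.2%) and 4 fell (15.4%), near the shares of all tested genes. The ends were Cdh13, a cadherin anchored to the membrane by lipid (2.38 ± 0.32, and 3.15 with the Gapdh covariate), and Pcdh20, a protocadherin (-1.53 ± 0.20, and -0.75 with the floor). With the Gapdh covariate 2 cadherins were called higher, and 3 were without sorted array 1 or without unsorted array 1.

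The counts of housekeeping and early response genes stand beside a Gapdh 3' to 5' signal of 3.21 ± 0.37 in sorted and 2.0 ± 0.21 in unsorted cells. Of 86 tested genes of oxidative phosphorylation 31 rose (36.0%) and 6 fell (6.98%), against 15.3% and 14% of all tested genes. Their median was 0.15, and Ndufa6, a complex I subunit, led those that rose (1.11 ± 0.14). The count of higher genes was 21 with the Gapdh covariate and 18 with the replicate number as a block. Of 42 tested ribosomal protein genes 16 fell (38.1%) and 3 rose (7.14%), against 14% and 15.3% of all tested genes. Their median was -0.23, with Rps2 at -1.14 ± 0.11. The count of lower genes was 9 with the covariate and 9 without unsorted array 1. Of 18 tested early response genes 3 fell and 0 rose, near the 14% of all tested genes that fell in the full fit. With scan day as a fixed block 6 fell, beside 1399 of all 9295 tested genes. With the Gapdh covariate 4 fell, beside 980 of all tested genes, and 0 rose in either setting. Each array left out in turn gave 1 to 3 lower and 0 to 1 higher. Arc, an activity-induced synaptic gene, was at 10.11, 8.64 and 9.07 against 10.35, 10.88 and 10.57 (-1.33 ± 0.40, limma adjusted p = 0.0108). Its call ended without sorted array 2 (limma adjusted p = 0.0875) or unsorted array 2 (0.0528), and the difference was 0.02 with G42_Homog_Cg as the reference. Thy1, a neuronal surface protein, rose by 0.53 ± 0.10. Of 6 tested neurofilament genes, Nefm fell (-0.99 ± 0.29) and Nefh, the heavy subunit, rose (0.72 ± 0.26, limma adjusted p = 0.0343). The Nefm call ended without sorted array 1 (limma adjusted p = 0.111), and the Nefh call in 6 alternatives, among them the Gapdh covariate (0.313) and without sorted array 2 (0.134).

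The sorted arrays were less alike than the unsorted ones. The median SD of a tested gene was 0.158 over the sorted and 0.105 over the unsorted arrays, and 8 genes against 2 had a range over 2 on the log2 scale. Snhg1, a host gene of small nucleolar RNAs, was at 7.62, 10.21 and 9.94 in sorted cells and at 9.56, 9.59 and 9.72 in unsorted cells. Myo5b, a myosin motor of vesicle transport, was at 6.20, 6.41 and 8.61 against 9.04, 8.69 and 8.95. Spon1, a secreted adhesion protein, was at 8.46, 9.43 and 10.86 against 10.13, 9.67 and 10.18. A different sorted array stood apart in these genes, array 1 for Snhg1 and array 3 for Myo5b. Ppil4, a peptidyl-prolyl isomerase, was at 9.54, 7.13 and 7.79 against 8.48, 8.99 and 8.43, and Pmaip1, a factor of cell death, at 8.03, 5.94 and 8.07 against 8.13, 8.26 and 8.16. Myo5b was called (-1.82 ± 0.42, limma adjusted p = 0.00102), and was at -2.59 without sorted array 3 and at -0.84 with the floor. Its call ended with the Gapdh covariate (limma adjusted p = 0.0567). Pmaip1 was called too (-0.84 ± 0.26, limma adjusted p = 0.0153), but not without sorted array 2 (-0.13, limma adjusted p = 0.48), 1 of 8 alternatives that ended its call, and was at -0.22 with the floor. Snhg1, Spon1 and Ppil4 were not called in the full fit. Ppil4 passed without sorted array 1 (-1.17, limma adjusted p = 0.0107) and Spon1 without sorted array 3 (-1.05, limma adjusted p = 0.0125).

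**Figure D4:**
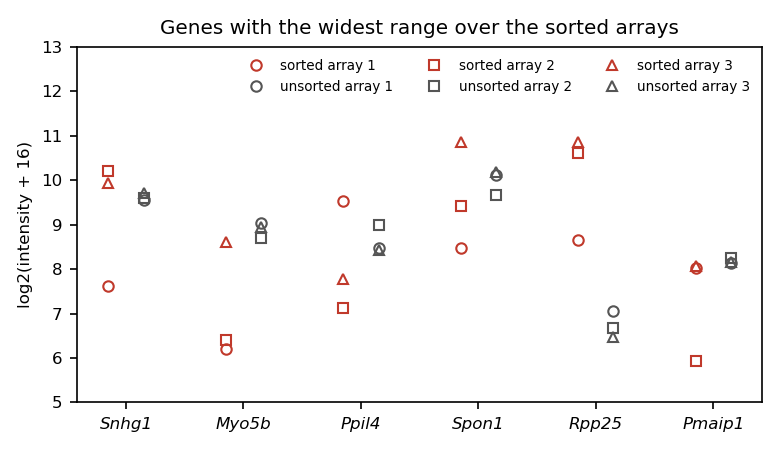
Level as log2(intensity + 16) of the 6 tested genes with the widest range over the sorted arrays, on each sorted (red) and unsorted (grey) array, with the symbol giving the array number. Unsorted arrays lie close together, while the sorted values of Snhg1 span 2.59 and those of Pmaip1 span 2.13.

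To see which differences were shared by another interneuron type, the difference between sorted and unsorted cells of the GIN line was contrasted with that of the G42 line, using no array for both lines. Limma called 884 of 9295 genes (9.51%), 436 with a greater value in GIN (4.69%) and 448 with a smaller one (4.82%). The share of greater calls was 49.3%, and 33.2% after median centring of the arrays. The unsorted cells of both lines differed in 1 gene (0.0108%), Serpina3n, a protease inhibitor, with 279 genes at an unadjusted p below 0.05. No scan day held arrays of both lines, so line and scan day cannot be told apart between the unsorted groups. In G42, sorted array 3 and unsorted array 3 were scanned on different days. The Gapdh 3' to 5' signal was 2.14, 2.04 and 1.75 on the sorted G42 arrays and 1.57, 2.44 and 1.91 on the unsorted G42 arrays, so these groups overlapped in G42 and not in GIN. With the Gapdh covariate 214 and 285 genes were called.

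Of the 193 genes called at least 2-fold higher in sorted GIN cells, 162 had the same sign in G42. Of the 345 genes at least 2-fold lower, 316 had the same sign in G42. The share of same signs over all tested genes was not counted, so neither count shows an excess over other genes. These genes were chosen by their GIN difference, so its size in them is not set against that in G42. Genes with close values in both lines included Apoe (-6.08 in GIN and -6.13 in G42), Crym (-4.99 and -5.26), Lhx6 (2.65 and 2.68), Gad1 (2.47 and 2.55), Vip (-2.53 and -2.36) and Ctss (-2.61 and -2.64). The contrast did not call these genes, which does not show that the lines were equal.

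Sst was among the genes whose difference was greater in GIN. On the G42 arrays it was at 9.29, 10.12 and 10.04 in sorted and at 10.04, 10.05 and 9.98 in unsorted cells, where the groups overlapped. The contrast between the lines was 4.09 ± 0.50 (limma adjusted p = 3.42e-07). Reln, at 9.71, 9.28 and 8.01 in sorted and 10.53, 10.73 and 10.76 in unsorted G42 cells, gave 4.63 ± 0.43, or 3.97 with the Gapdh covariate. Adcy2, an adenylyl cyclase, was at 12.48, 12.49 and 12.13 against 11.51, 11.64 and 11.55 in GIN, and at 8.17, 8.18 and 8.10 against 11.59, 11.33 and 11.39 in G42. It thus stood above the unsorted cells in one line and below them in the other. Gap43, a growth cone protein, had the same pattern, with 1.01 in GIN and -2.92 in G42. Igf1 (contrast 3.28 ± 0.37), Chl1 (2.92 ± 0.39) and Tox (3.02 ± 0.27) were also greater in GIN.

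In the other direction, Prss23, a serine protease, was at 6.17, 5.73 and 5.67 against 8.39, 8.26 and 8.69 in GIN, and at 11.14, 11.14 and 11.25 against 8.85, 8.80 and 8.47 in G42. The sorted GIN values lay under the filter level. The contrast was -5.07 ± 0.64, and -4.25 with a pseudocount of 64 and -3.15 with the floor, where the GIN difference alone was -0.67 and no longer called (limma adjusted p = 0.204). Pvalb was at 13.39, 13.39 and 13.47 in sorted G42 cells against 9.97, 9.96 and 10.05. Its contrast was -4.30 ± 0.33. Aldoc and Cck were lower in sorted cells of both lines, further in GIN: Aldoc by -4.93 against -0.96 and Cck by -4.39 against -0.78. GIN_Cg had the lowest Cck mean of the 12 sorted groups. In oxidative phosphorylation, 0 of 86 tested genes had a greater and 23 a smaller difference in GIN, against 4.69% and 4.82% of all tested genes.

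**Figure D5:**
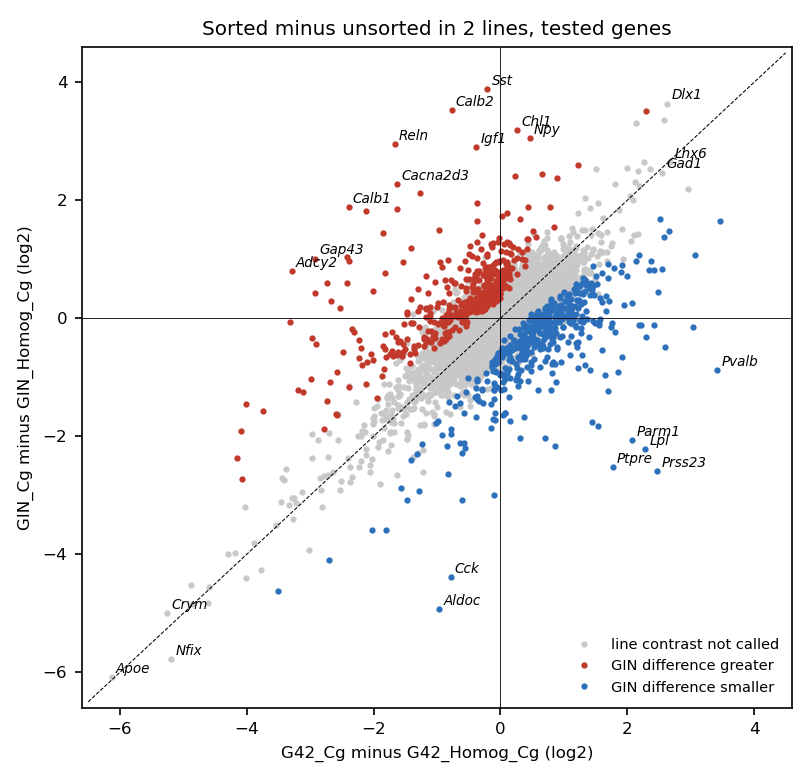
Difference between sorted and unsorted cells in the GIN line (vertical axis) and the G42 line (horizontal axis), on the log2(intensity + 16) scale, for 9295 tested genes. Red and blue points are the 436 and 448 genes whose difference was called greater or smaller in GIN; Apoe, Crym and Lhx6 lie near the dashed line of equal values, and Sst and Pvalb lie far from it on opposite sides.

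Where a named gene had more than 1 probe set of its own, the sets could be compared. Of the 124 named genes 42 had another tested probe set, 69 sets in all, of which 45 were called in the same direction and 0 in the opposite direction. The rest were not called in the direction of the brightest set, some of them near no difference. A further set gave 0.27 for Gad1 (2.47 for the brightest set), 0.04 for Slc32a1 (2.25), 0.04 for Cnp (-1.87) and 0.18 for Kcnmb2 (1.65). For genes with large negative differences it gave 0.16 for Nfix (-5.77), -0.11 for Mbp (-4.52) and 0.19 for Rgs5 (-3.99). The values were -0.12 for Syt17 (-3.07) and -0.14 for Prss23 (-2.59). Nfix and Mbp also had other sets that were called lower. Further sets of Csf1r were called lower, but by less (-0.40 and -0.41, against -1.35). The differences of such genes depend on the probe set.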

How the data were processed

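The deposited table holds linear intensity values of 22690 probe sets on 42 arrays, from 1 to 22818.24. The summary and scaling by which the authors made these deposited intensity values are not given in the sources used here, and raw scans were not analysed. Scan day was read from the deposited array records.

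Values were turned into log2(intensity + 16). Of 20380 probe sets with 1 symbol in the 2016 annotation, the brightest stood for each of 12393 genes, and 9295 passed the filter at the 25th percentile. Limma 3.58.1 in R 4.3.3 fitted a mean per group over 42 arrays (28 residual degrees of freedom), with trended, robust moderated variances and Benjamini-Hochberg adjustment. The procedure was tested on simulated data. The series design gives the sorted replicates as different animals; for unsorted arrays this was not stated, and p-values may then cover technical spread only. The number of arrays limits the precision.

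Members and lists were chosen with earlier results of these data known. Named genes are 19 fixed genes, the 12 largest non-overlapping calls per direction, up to 4 per list with up to 2 opposite members, the 8 largest line contrasts per direction and the 6 widest ranges among sorted arrays; other list members with values, and genes outside the filter, were chosen after their values were seen. Alternatives were other normalizations, pseudocounts of 1 and 64, no filter, a 50th percentile filter, a floor, every probe set, fewer arrays, replicate and scan-day blocks, the Gapdh covariate, G42 references and each array left out. Scan-day pairs, list counts without the filter and the somatostatin list without Sst were added after seeing the data.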

Additional observations from a re-analysis of the deposited data

Results flagged for a closer look

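The difference between sorted and unsorted cells itself differed between the GIN and the G42 line, by the limma contrast of both, for 884 genes. The 8 contrasts furthest in each direction are given here as GIN minus G42 on the log2 scale. Those greater in GIN were Reln (4.63), Calb2 (4.29), Calb1 (4.27), Sst (4.09), Adcy2 (4.09), Olfm3, a secreted olfactomedin protein (3.95), Gap43 (3.93) and Cacna2d3 (3.90). Those smaller in GIN were Prss23 (-5.07), Lpl (-4.50), Pvalb (-4.30), Ptpre, a receptor tyrosine phosphatase (-4.29), Parm1, a mucin-like protein (-4.14), Aldoc (-3.96), Cck (-3.61) and Myo5b (-3.35). All 16 kept their direction and call in the alternatives run, but for 7 the fold moved by over 1.5 times in at least 1 of them. With low values raised to the filter level the contrast was -3.15 for Prss23, -3.81 for Lpl, -3.48 for Ptpre and -2.38 for Myo5b. It was -4.12 for Myo5b without sorted array 3 and -4.25 for Prss23 with a pseudocount of 64. It was 3.97 for Reln with the Gapdh covariate, 3.68 for Calb1 with scan day as a fixed block and 3.29 for Olfm3 without G42_Cg array 2.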

How the results depend on the processing

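Apart from the Gapdh covariate, the count of genes called higher ran from 1057 to 1885 over the alternatives that tested genes. That of genes called lower ran from 1041 to 1570, and both unsorted groups as the reference gave the upper ends. With every probe set, 2102 probe sets were called higher and 1899 lower. Each array left out in turn gave 1062 to 1356 higher and 1100 to 1175 lower. With the Gapdh ratio as a covariate 789 were higher and 980 lower. For the line contrast the covariate left 214 greater and 285 smaller, and each array left out gave 314 to 557 and 346 to 461. The sole gene that differed between the unsorted groups became 2 genes with a pseudocount of 64 and with the floor, and 0 with the 12 arrays of both lines. Arrays left out gave 0 to 2 genes higher and 0 to 1 lower, and every probe set gave 3 probe sets lower. Deviations of same-numbered GIN arrays from their group means correlated at -0.03, -0.06 and 0.07. With 3 arrays per group, such values cannot show whether replicate numbers paired the arrays. GIN arrays scanned on the same day correlated at 0.156, 0.157 and 0.106, and G42 arrays at -0.289 and -0.037. With scan-day pairs on the 6 arrays 1236 genes were higher and 1193 lower, and with scan day as a fixed block 1536 and 1399. With the replicate number as a block, 1057 genes were higher and 1077 lower, and 383 and 372 in the line contrast. Over the named genes and alternatives 2732 values kept their direction and call, 75 lost the call, 2 gained it and 8 changed sign. Arc was 0.024 with the G42 reference. Gfap was 0.10 with the Gapdh covariate and ran from -0.061 to 0.014 with each array left out. Snhg1 ran from -0.84 to 0.45 (positive without sorted array 1), Spon1 from -1.05 to 0.15 (sorted array 1) and Ppil4 from -1.17 to 0.033 (sorted array 2). The cause was not tested. Levels under 203 may sit near background, which was not measured here, so folds of genes at that level depend on the floor.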

Other observations

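Signalling genes on no list, chosen after their values were seen from the genes called by limma with at least a 4-fold difference, gave further values. Sstr2, a somatostatin receptor, was at 7.49, 7.29 and 7.15 in sorted GIN cells and at 10.26, 10.60 and 10.43 in unsorted cells (-3.12 ± 0.27, SE, limma adjusted p = 2.21e-11). Its sorted arrays were all lower, while the precursor of its ligand was higher. Cckbr, the brain receptor of cholecystokinin, fell by 2.31, and so did Ramp1 (-3.05) and Ramp3 (-3.08), which set the ligand of calcitonin-family receptors. The chemokine gene Cxcl12 (-2.94) and Nrp1, a semaphorin receptor (-2.71), were lower. Rgs4, a G-protein regulator, fell by 3.59 and Kalrn, an exchange factor of dendritic spines, by 3.51. The clock output factors Dbp (-2.28) and Hlf (-2.20) were lower as well.

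Among the higher genes, Malat1, an abundant nuclear RNA, was at 12.26, 12.73 and 12.59 against 10.52, 9.40 and 10.41. Its difference was 2.41 in GIN and 0.23 in G42 (line contrast 2.18 ± 0.57, limma adjusted p = 0.0104). Synpr, a synaptic vesicle protein, differed by 2.13 in GIN and -1.27 in G42 (limma adjusted p of the contrast = 5.88e-09). Dab1, the adaptor through which reelin signals, was at -2.03 in GIN and 0.31 in G42 (contrast -2.34 ± 0.30), and Rora, a nuclear receptor, at -2.03 and 0.70 (contrast -2.73 ± 0.42). For Cygb, a globin (2.27 in GIN and 1.81 in G42), Spock3, a matrix proteoglycan (2.32 and 2.13), and Slc8a1, a sodium and calcium exchanger (2.08 and 2.04), the line contrast was not called.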
